A study of Mus musculus with 4 samples.

Results

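Collagen chains are the subunits that wind in threes into collagen, the main protein of the extracellular matrix. Genes were taken as members when their symbol was Col, a type number, the letter a and a chain number, which found 44 of the 49585 genes counted. Of these, 30 had enough counts to be tested and 14 did not. They fall into 11 fibrillar chains, 8 chains of basement membranes, 6 of collagen VI, 9 of fibril-associated collagens, 3 of short-chain networks, 4 transmembrane chains and 3 others.

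The samples were 4 libraries of proliferating C2C12, an established mouse myoblast line of strain C3H that can fuse into myotubes. In 2 libraries a retrovirus made the cells overexpress C/EBPβ, the leucine-zipper factor that Cebpb encodes. In the other 2 they carried the empty retroviral vector, pLXSN. All cells, controls included, were selected with G418 at 1200 μg/ml for 7 days, kept as pooled stable cells and grown for 48 h, in a line maintained in medium with 10% serum. The question is how the collagen genes stand when C/EBPβ is forced on in myoblasts that are still dividing. The labels do not say if libraries of a group are separate cultures, so p-values cover only the variation among these libraries, perhaps a technical one.

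Fibrillar collagens form the cross-striated fibrils of connective tissue, in which types I and III make up the bulk and type V helps to start the fibril. Type IV builds the network of basement membranes, and types XV and XVIII sit in the basement membrane zone. Type VI forms beaded filaments around muscle fibres, and mutations in its main chains cause muscle disease in humans. Fibril-associated collagens decorate the surface of fibrils. In muscle these proteins come largely from fibroblasts, although cultured myoblasts make them too.

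C/EBPβ libraries held 38656497 and 92027838 counts assigned to genes, and empty vector libraries 40912955 and 37566321. The overexpressed gene was checked first: Cebpb stood at 483 and 473 CPM with C/EBPβ, against 85.0 and 76.8 CPM with empty vector. CPM are counts per 1000000 counts of the library over tested genes, scaled by its TMM factor. Reads of the vector-borne copy may be included in the Cebpb value. Of the 6 myoblast markers, all present in every library, Myf5 rose (log2 fold change 0.60) and 5 fell, namely Myod1 (-0.36, lost without C/EBPβ replicate 1 at adjusted p = 0.152 in edgeR), Des (-0.57), Cdh15 (-1.25), Itga7 (-1.42) and Chrna1 (-0.74). Their summed level was 1814 and 2151 CPM with C/EBPβ and 3322 and 3623 CPM with empty vector, where marker sums use unscaled library totals. The 10 leukocyte markers summed to 7.605 and 7.998 CPM with C/EBPβ and 5.96 and 5.35 CPM with empty vector, with Tyrobp, Adgre1, Itgam and Cd3e at 0 counts in every library. The part of any of these in the collagen values was not tested. In such bulk samples, fewer cells of a type and less RNA per cell cannot be told apart.

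Collagen transcripts took 1.93% and 1.56% of all counts with C/EBPβ, against 0.573% and 0.631% with empty vector. Of the 30 tested chains, 21 rose (70.0%) and 3 fell (10.0%) with C/EBPβ, while 6 did not pass the threshold. Over all 15078 tested genes 14.1% were called higher and 10.8% lower, or 24.9% in either direction. Calls are at an adjusted p of 0.05 in edgeR (quasi-likelihood test, Benjamini-Hochberg over all tested genes), the test behind each adjusted p given here unless another is named. The median log2 fold change (C/EBPβ over empty vector) was 0.96 over the tested chains and 0.001 over all tested genes. At least 2-fold rises were called in 15 of the 30 tested chains, and in 6.24% of all tested genes. The 15 include Col10a1, Col11a1 and Col6a4. These 3 passed the low-count filter through their C/EBPβ libraries only, so that a rise was built into their being tested. Among the 27 other chains 18 rose and 3 fell.

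**Figure D1:**
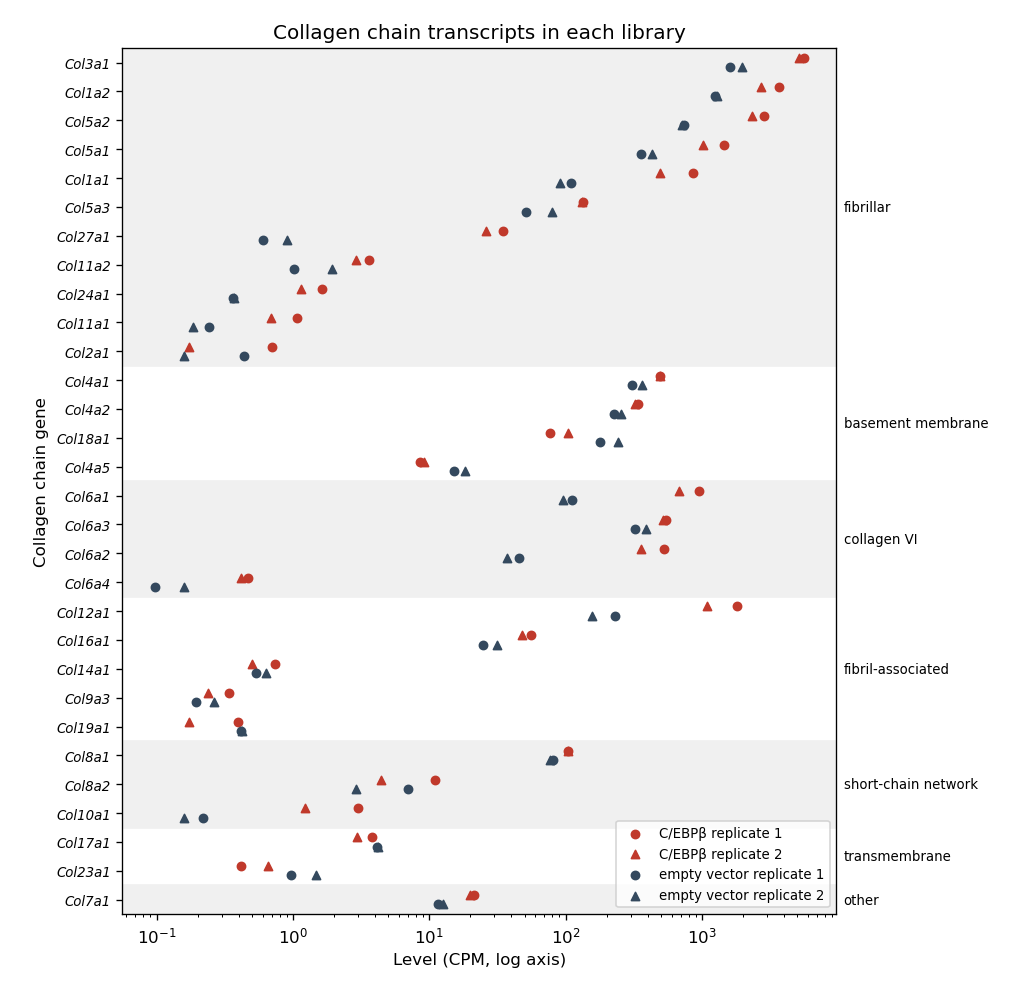
CPM (log axis) of the 30 tested collagen chains in each library, grouped by class; red marks C/EBPβ, dark blue empty vector, circles replicate 1 and triangles replicate 2. Fibrillar chains other than Col2a1, and collagen VI chains, sit to the right in C/EBPβ libraries, with Col3a1 at 5602 and 5128 CPM, while Col18a1, Col4a5 and Col23a1 sit to the left.

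Promoter windows of the genes on which the account below turns most are printed here. They are RefSeq windows of 300 bases on GRCm38.p6, from 250 before to 50 after the start annotated there, 5′ to 3′ on the gene's strand. That start can differ from the start of the counted gene. The Col27a1 window, from 63215162, lies wholly inside the counted gene, which starts at 63214004. Capitals mark matches on either strand to TTNNGNAA (a degenerate C/EBP motif), CCAAT (the CCAAT box) or GGGCGG (the GC box). Col6a2 has 2 windows, of which the upstream one is printed; the other held 3 GC boxes and no match to TTNNGNAA. The palindrome TTGCGCAA and TATAAA were also searched, and neither matched in these 6 windows. Col4a1 and Col4a2 are transcribed away from each other and rose together, Col6a1 and Col6a2 rose most within collagen VI and Col6a3 least, and Col27a1 had the largest fold change of the family.
Col4a1, chr8:11312777-11313076, minus strand: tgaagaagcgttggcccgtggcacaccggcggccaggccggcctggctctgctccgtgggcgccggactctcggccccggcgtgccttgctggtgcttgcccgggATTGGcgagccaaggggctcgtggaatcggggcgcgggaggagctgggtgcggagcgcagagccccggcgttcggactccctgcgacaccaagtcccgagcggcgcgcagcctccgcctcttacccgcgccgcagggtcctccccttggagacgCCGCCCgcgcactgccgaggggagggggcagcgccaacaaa
Col4a2, chr8:11312555-11312854, plus strand: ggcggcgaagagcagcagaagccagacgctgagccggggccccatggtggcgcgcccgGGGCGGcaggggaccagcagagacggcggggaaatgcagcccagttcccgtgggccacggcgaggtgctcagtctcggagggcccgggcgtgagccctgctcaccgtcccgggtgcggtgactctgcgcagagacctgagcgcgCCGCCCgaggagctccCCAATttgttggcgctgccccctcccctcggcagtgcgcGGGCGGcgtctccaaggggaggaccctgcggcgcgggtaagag
Col6a1, chr10:76725995-76726294, minus strand: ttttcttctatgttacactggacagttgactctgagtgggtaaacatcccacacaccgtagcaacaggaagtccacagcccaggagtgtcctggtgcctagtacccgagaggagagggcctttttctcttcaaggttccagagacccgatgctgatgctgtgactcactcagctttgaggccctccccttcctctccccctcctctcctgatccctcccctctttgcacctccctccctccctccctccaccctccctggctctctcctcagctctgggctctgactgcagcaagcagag
Col6a2, chr10:76623581-76623880, minus strand: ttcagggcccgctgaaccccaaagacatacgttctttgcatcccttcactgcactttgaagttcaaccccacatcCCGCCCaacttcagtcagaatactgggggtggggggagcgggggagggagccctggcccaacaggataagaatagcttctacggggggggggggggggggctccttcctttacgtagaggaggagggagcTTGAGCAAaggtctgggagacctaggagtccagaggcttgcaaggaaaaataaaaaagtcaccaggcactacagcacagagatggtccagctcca
Col6a3, chr1:90843922-90844221, minus strand: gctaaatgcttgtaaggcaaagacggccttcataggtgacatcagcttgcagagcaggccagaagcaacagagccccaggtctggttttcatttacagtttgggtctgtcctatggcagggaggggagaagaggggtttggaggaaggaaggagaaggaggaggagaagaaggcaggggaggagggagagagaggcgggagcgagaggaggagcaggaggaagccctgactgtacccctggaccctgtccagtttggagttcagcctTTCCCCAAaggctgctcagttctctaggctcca
Col27a1, chr4:63215162-63215461, plus strand: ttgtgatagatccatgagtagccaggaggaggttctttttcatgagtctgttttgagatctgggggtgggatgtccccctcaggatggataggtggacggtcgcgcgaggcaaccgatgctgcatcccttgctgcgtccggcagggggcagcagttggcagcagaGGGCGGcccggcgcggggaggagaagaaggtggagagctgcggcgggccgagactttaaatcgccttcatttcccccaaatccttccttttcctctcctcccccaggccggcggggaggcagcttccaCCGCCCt

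RefSeq windows were found for 35 of the 44 chains, some with more than 1 start, which gave 38 windows. The degenerate C/EBP motif TTNNGNAA matched in 14 of them (36.8%), and in 40.7% of the 32851 windows of all genes. The palindrome TTGCGCAA matched in 0 collagen windows and in 0.183% of all windows. CCAAT was found in 34.2% of collagen windows and 37.4% of all windows, and TATAAA in 13.2% and 13.6%. The GC box GGGCGG was in 60.5% of collagen windows, against 35.7% of all. Collagen windows had a median GC content of 59.8%, against 52.7% for all windows, and the part of base composition in the GC box share was not tested. The windows of 18 of the 21 chains that rose were among them, while Col1a1, Col5a2 and Col12a1 had no window and were not searched. Of the 19 windows of these 18 genes, 14 held GGGCGG. The 5 that held TTNNGNAA were at Col3a1, Col5a3, Col6a2, Col6a3 and Col8a1.

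Fibrillar chains rose in 10 of 11 members, all of which were tested, and each of the 10 rose at least 2-fold, Col11a1 with the filter limit given above. Their median log2 fold change was 1.65. Collagen III, a homotrimer of extensible tissues, is encoded by Col3a1 (ENSMUSG00000026043, chr1:45311538-45349706, plus strand of GRCm38, 50 exonic blocks). Col3a1 had 5602 and 5128 CPM in C/EBPβ libraries, against 1603 and 1965 CPM in empty vector libraries. It was 3.01-fold higher (log2 fold change 1.59, SE 0.14, adjusted p = 0.000151). By CPM it was the gene of rank 2 among all tested genes with C/EBPβ and of rank 23 with empty vector, and per length of rank 39 with C/EBPβ and 217 with empty vector.

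Type I collagen, the main protein of tendon and bone, is normally built of 2 chains from Col1a1 and 1 from Col1a2. Col1a1 (chr11:94936224-94953042, plus strand) stood at 864 and 494 CPM with C/EBPβ, against 110.3 and 90.6 CPM with empty vector, with C/EBPβ replicate 1 highest. Col1a2 (chr6:4504814-4541544, plus strand) stood at 3672 and 2701 CPM with C/EBPβ, against 1256 and 1294 CPM with empty vector. The groups did not overlap for either gene, but neither did they for Col17a1 and Col19a1, which were not called. The share of all tested genes without overlap was not computed. The log2 fold change was 2.76 for Col1a1 (SE 0.24, adjusted p = 0.000142) and 1.32 for Col1a2 (SE 0.15, adjusted p = 0.000530).

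The chains of type I thus differed in size of change. Per length, in FPKM (CPM per kilobase of exon union), Col1a1 was at 0.446 and 0.346 of Col1a2 in C/EBPβ libraries and at 0.166 and 0.133 in empty vector libraries. Measured per coding length the ratios were 0.222 and 0.173 with C/EBPβ, against 0.0829 and 0.0662 with empty vector. Either way the ratio of the chains was 2.64-fold higher with C/EBPβ, and Col1a2 exceeded Col1a1 in all 4 libraries. With 2 libraries a group, a two-sided exact permutation test of a ratio cannot give a p below 0.333, and the ratios are given as a description with no test.

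Type V collagen, which sets fibril diameter, had all 3 chains higher. Col5a2 (chr1:45374321-45503282, minus strand) lies tail to tail with Col3a1, with 24614 bases between them. It had 2861 and 2337 CPM in C/EBPβ libraries, against 741 and 713 CPM in empty vector libraries (log2 fold change 1.84, SE 0.13, adjusted p = 4.74e-05). Col5a1 had 1458 and 1025 CPM with C/EBPβ, against 358 and 431 CPM with empty vector (1.65, SE 0.17). Col5a3, the least abundant type V chain, had 134.7 and 131.6 CPM with C/EBPβ, against 51.1 and 79.2 CPM with empty vector (1.03, SE 0.17, adjusted p = 0.00320). Per length, Col5a1 stood at 0.576 and 0.496 of Col5a2 with C/EBPβ, overlapping its 0.546 and 0.684 with empty vector. Col5a3 stood at 0.0663 and 0.0793 of Col5a2 with C/EBPβ, below its 0.0972 and 0.156 with empty vector.

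The fibrillar chains of low abundance moved in the same direction. Col27a1 (chr4:63214004-63334991, plus strand), a fibrillar chain of cartilage, had 35.05 and 26.0 CPM with C/EBPβ, against 0.608 and 0.899 CPM with empty vector. Its counts were 1337 and 2393 with C/EBPβ, against 25 and 34 with empty vector, so that the groups lie far apart. The fold change of 40.5 (log2 fold change 5.34, SE 0.23, adjusted p = 4.78e-06) was the largest of the 30 tested chains. Even so, Col27a1 was of rank 16 per length among the tested collagens with C/EBPβ. Col24a1 had 1.62 and 1.15 CPM with C/EBPβ, against 0.365 and 0.370 CPM with empty vector (1.88, SE 0.32).

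Type XI collagen, the cartilage relative of type V, was of low abundance, and Col11a1 lay below the low-count filter with empty vector. Col11a1 had 1.07 and 0.686 CPM with C/EBPβ, against 0.243 and 0.185 CPM with empty vector (1.96, SE 0.40, adjusted p = 0.00827). Col11a2 had 3.59 and 2.92 CPM with C/EBPβ, against 1.02 and 1.93 CPM with empty vector (1.13, SE 0.29, adjusted p = 0.0230). Neither call held in every fit with 1 control library left. Col11a1 was not called without empty vector replicate 2, where its log2 fold change was 1.79, against 2.18 without empty vector replicate 1. Col11a2 was not called without empty vector replicate 1, where it was 0.74, against 1.65 without empty vector replicate 2. Col2a1, the main collagen of cartilage, had 0.708 and 0.174 CPM with C/EBPβ and 0.438 and 0.159 CPM with empty vector. Its groups overlapped and it did not pass (log2 fold change 0.29, adjusted p = 0.814).

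**Figure D2:**
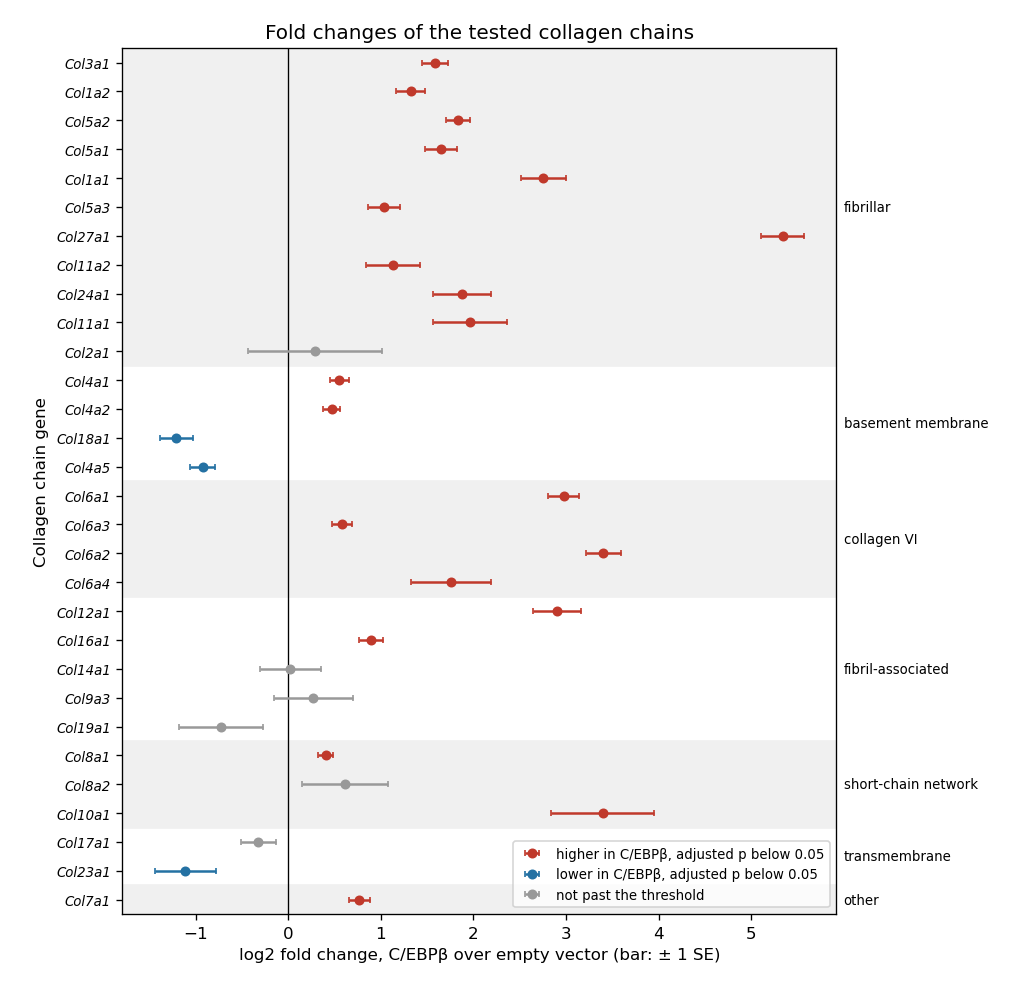
Log2 fold change (C/EBPβ over empty vector, bars ± 1 SE) of the 30 tested collagen chains by class; red marks chains called higher, blue chains called lower, grey chains past no threshold. Col27a1 lies farthest right at 5.34 and Col18a1 farthest left at -1.21, and basement membrane chains lie on either side of 0.

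Collagen VI rose in its 3 main chains. The other tested chain, Col6a4, was also called higher, but passed the filter through its C/EBPβ libraries only, and the remaining 2 of 6 members could not be tested. Its main form joins 1 chain each from Col6a1, Col6a2 and Col6a3. Col6a2 (chr10:76595762-76623630, minus strand) had 523 and 356 CPM in C/EBPβ libraries, against 45.6 and 37.5 CPM in empty vector libraries. Its log2 fold change of 3.40 (SE 0.19, adjusted p = 1.36e-05) is 10.6-fold. Col6a1 (chr10:76708792-76726168, minus strand) had 957 and 682 CPM with C/EBPβ, against 112 and 96.1 CPM with empty vector, which is 7.86-fold higher (2.97, SE 0.17, adjusted p = 1.57e-05). Both genes lie in tandem, 85161 bases apart, and in both C/EBPβ replicate 1 was the highest library.

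Col6a3 (chr1:90765923-90843971, minus strand), which encodes the long chain of type VI, changed less. It had 549 and 515 CPM with C/EBPβ, against 324 and 388 CPM with empty vector, a 1.49-fold rise (log2 fold change 0.58, SE 0.11, adjusted p = 0.00600). Per length, Col6a1 was at 4.76 and 3.62 of Col6a3 with C/EBPβ, against 0.948 and 0.676 with empty vector, so that the ratio was 5.19-fold higher. Col6a2 was at 1.37 and 0.994 of Col6a3 with C/EBPβ, against 0.202 and 0.139 with empty vector, 6.97-fold higher. The Col6a1 to Col6a2 ratio moved less, at 3.48 and 3.64 with C/EBPβ, against 4.69 and 4.87 with empty vector. Measured per coding length, Col6a1 was at 5.59 and 4.25 of Col6a3 with C/EBPβ, against 1.11 and 0.792 with empty vector.

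Col6a4, an alternative chain of type VI in mice, had 0.472 and 0.414 CPM with C/EBPβ, against 0.0972 and 0.159 CPM with empty vector (log2 fold change 1.76, SE 0.43, adjusted p = 0.0192). Its counts with empty vector were 4 and 6. DESeq2 did not call it (1.79, adjusted p = 0.149). Nor did edgeR with C/EBPβ replicate 1 left out (1.69, adjusted p = 0.0618). Leaving out either control library had the same effect, at 1.44 for replicate 1 (adjusted p = 0.140) and 2.14 for replicate 2 (adjusted p = 0.0624). Col6a5 and Col6a6, its neighbours on chromosome 9, had at most 2 and 0 counts in a library.

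Basement membrane chains split. Only 4 of 8 members had enough counts, and 2 rose and 2 fell, with a median log2 fold change of -0.23. Col4a1 and Col4a2 encode the common chains of the type IV network, and the annotated genes overlap by 22 bases at their starts, on opposite strands of chromosome 8. Their promoter windows printed above share 78 bases. Col4a1 had 492 and 492 CPM with C/EBPβ, against 309.5 and 362 CPM with empty vector (log2 fold change 0.55, SE 0.10, adjusted p = 0.00526). Col4a2 had 342.5 and 321 CPM with C/EBPβ, against 227 and 253 CPM with empty vector (0.47, SE 0.09, adjusted p = 0.00760). The groups did not overlap in either gene, which holds as well for the uncalled Col17a1 and Col19a1. Per length the Col4a1 to Col4a2 ratio was 1.27 and 1.36 with C/EBPβ, against 1.21 and 1.27 with empty vector, a 1.06-fold difference.

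Col4a5 (chrX:141475385-141689234, plus strand), an X-linked type IV chain of specialised basement membranes, fell. It had 8.52 and 9.13 CPM with C/EBPβ, against 15.2 and 18.4 CPM with empty vector (log2 fold change -0.93, SE 0.13, adjusted p = 0.00155). Set against Col4a1 per length it was at 0.0192 and 0.0206 with C/EBPβ, against 0.0546 and 0.0566 with empty vector. Its divergent neighbour Col4a6, 1308 bases away, had 4 and 19 counts with C/EBPβ and 18 and 9 with empty vector, too few to test. Col4a3 and Col4a4, chains of the kidney glomerulus, had at most 6 and 12 counts in a library.

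Col18a1 (chr10:77052178-77166548, minus strand) encodes a basement membrane collagen whose end fragment is endostatin, and it fell most of all tested chains. It had 77.1 and 104.9 CPM with C/EBPβ, against 179 and 243 CPM with empty vector (log2 fold change -1.21, SE 0.17, adjusted p = 0.00152). Col18a1 lies 326009 bases beyond Col6a1 on the same strand, so that a chain that fell and the strongly raised Col6a1 and Col6a2 stand on a short stretch of chromosome 10. Col15a1, its relative, had 8 and 18 counts with C/EBPβ, against 1 and 3 with empty vector, and was not tested.

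Among fibril-associated chains 5 of 9 were tested, of which 2 rose. Col12a1 (chr9:79598991-79718831, minus strand), which links fibrils in tendon and muscle fascia, had 1811 and 1091 CPM with C/EBPβ, against 231 and 157.5 CPM with empty vector. It was 7.47-fold higher (log2 fold change 2.90, SE 0.26, adjusted p = 0.000158), with C/EBPβ replicate 1 well above replicate 2. Col16a1, a minor fibril-associated chain, had 56.2 and 47.9 CPM with C/EBPβ, against 24.6 and 31.3 CPM with empty vector (0.89, SE 0.13, adjusted p = 0.00177). Col14a1, Col9a3 and Col19a1 were all below 1 CPM in every library and did not pass, with log2 fold changes of 0.02, 0.27 and -0.73. Col9a1, Col9a2, Col20a1 and Col22a1 were not tested, the last of them with at most 21 counts in a library.

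Short-chain collagens build hexagonal networks. Col8a1, a chain of vessel walls and the corneal membrane, had 103.9 and 104.8 CPM with C/EBPβ, against 80.45 and 77.4 CPM with empty vector, a 1.32-fold rise (log2 fold change 0.40, SE 0.08, adjusted p = 0.00639). Its partner Col8a2 had 11.1 and 4.46 CPM with C/EBPβ and 6.98 and 2.88 CPM with empty vector. In each group replicate 1 was the higher library, the groups overlapped, and the gene did not pass (0.61, adjusted p = 0.384). It turned to -0.15 without C/EBPβ replicate 1. It passed when C/EBPβ replicate 2 was left out (1.16, adjusted p = 5e-07) and when low counts were not filtered (0.61, adjusted p = 0.00174). Col10a1, the collagen of hypertrophic cartilage, had 3.01 and 1.22 CPM with C/EBPβ, against 0.219 and 0.159 CPM with empty vector. Its log2 fold change was 3.39 (SE 0.56, adjusted p = 0.00294), with a rise built into its being tested by the filter. It was 2.67 when C/EBPβ replicate 1 was left out. Cartilage and bone markers summed to 149 and 142 CPM with C/EBPβ, against 174 and 169.5 CPM with empty vector. Of 5 tested members Runx2 rose (0.61) and Sox9 and Phex fell (-1.04 and -1.53), and their part in the Col10a1 and Col27a1 values was not tested.

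Transmembrane collagens were scarce, and of the remaining types only Col7a1 had enough counts to be tested. Col23a1, a transmembrane chain, had 0.419 and 0.653 CPM with C/EBPβ, against 0.972 and 1.48 CPM with empty vector (log2 fold change -1.11, SE 0.33, adjusted p = 0.0391). DESeq2 did not call it (-1.16, adjusted p = 0.0992). Nor did edgeR when C/EBPβ replicate 1 was left out (-0.90, adjusted p = 0.0971) or empty vector replicate 2 was (-0.79, adjusted p = 0.210). Col17a1, a hemidesmosome collagen of epithelia, did not pass (-0.32, adjusted p = 0.249). Col7a1, which forms anchoring fibrils beneath epithelia, had 21.3 and 19.9 CPM with C/EBPβ, against 11.7 and 12.5 CPM with empty vector (0.77, SE 0.11, adjusted p = 0.00146). Col25a1 had 9 and 24 counts with C/EBPβ, against 0 and 1 with empty vector, and Col28a1 had 6 and 11 with C/EBPβ, against 0 and 0 with empty vector. Col26a1 had at most 8 counts in a library and Col13a1 had 0 in all.

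**Figure D3:**
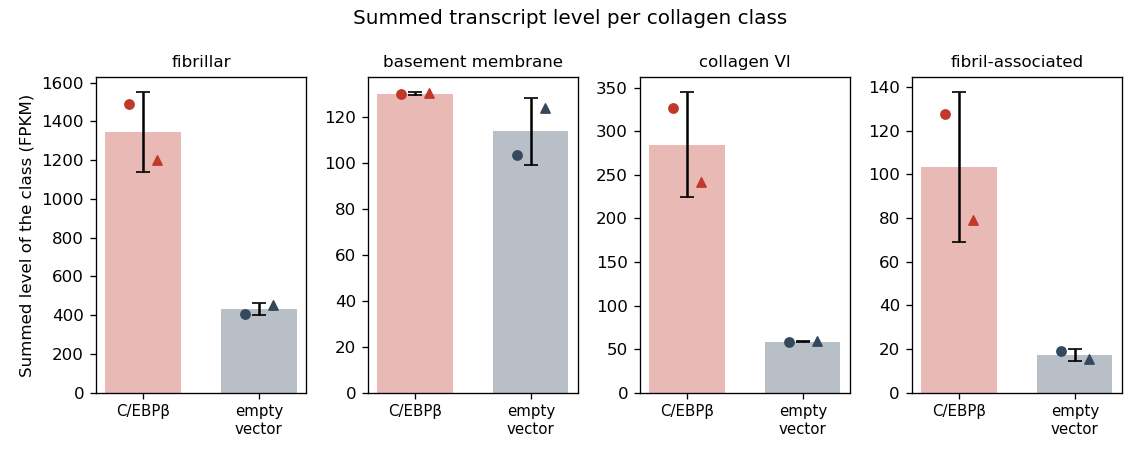
Summed FPKM of all members of 4 collagen classes (bars mean, error bars SD, n = 2 libraries a group; circles replicate 1, triangles replicate 2), each panel with its own axis from 0. Fibrillar, collagen VI and fibril-associated sums are apart between the groups, at 1346, 284 and 103 FPKM with C/EBPβ on average, while the basement membrane sums are close.

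Summed over members, the classes changed by different amounts. Fibrillar chains summed to 1491 and 1201 FPKM with C/EBPβ, against 408.5 and 455 FPKM with empty vector, a ratio of means of 3.12. Collagen VI summed to 327 and 242 FPKM with C/EBPβ, against 58.2 and 58.9 FPKM with empty vector, a ratio of 4.855. Fibril-associated chains summed to 127.6 and 79.0 FPKM with C/EBPβ, against 19.0 and 15.2 FPKM with empty vector, a ratio of 6.03, and Col12a1 made up 92.0% of the sum with C/EBPβ. Basement membrane chains summed to 130.0 and 130.8 FPKM with C/EBPβ, against 103.6 and 124 FPKM with empty vector, a ratio of 1.15. The empty vector libraries were farther from each other than the higher of them was from either C/EBPβ library. With 2 libraries a group these sums were not tested.

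The make-up of collagen RNA differed accordingly. Fibrillar chains made up 71.3% of summed collagen FPKM with C/EBPβ and 67.4% with empty vector. Collagen VI made up 15.6% and 14.4% with C/EBPβ, against 9.57% and 8.77% with empty vector. Basement membrane chains made up 6.18% and 7.80% with C/EBPβ, against 17.0% and 18.5% with empty vector. Per coding length the basement membrane share was 4.78% with C/EBPβ and 12.1% with empty vector. The leading chain was Col3a1 in both groups, at 29.1% of collagen FPKM with C/EBPβ and 28.3% with empty vector. Col5a2, Col1a2 and Col6a1 followed with C/EBPβ, at 271, 256 and 187 FPKM, and Col1a2, Col5a2 and Col5a1 with empty vector, at 103, 75.8 and 46.5 FPKM. Per coding length Col1a2 stood ahead of Col5a2 with C/EBPβ, so that the order of these neighbours depends on the length used.

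**Figure D4:**
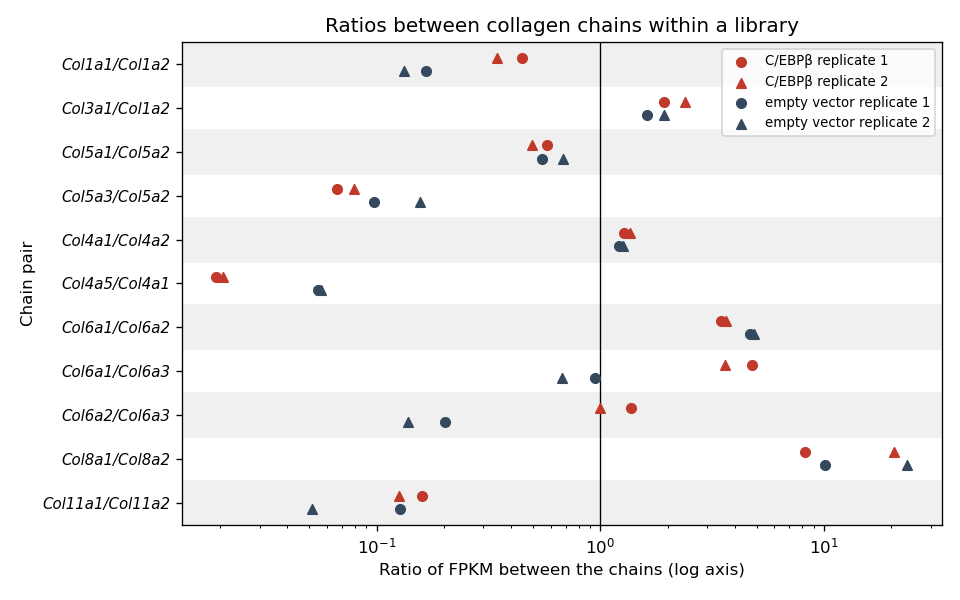
Ratio of FPKM between collagen chains within each library (log axis, line at 1); red marks C/EBPβ, dark blue empty vector, circles replicate 1 and triangles replicate 2. Col6a1/Col6a3, Col6a2/Col6a3 and Col1a1/Col1a2 lie to the right with C/EBPβ, Col4a5/Col4a1 lies to the left, and Col4a1/Col4a2 lies between 1.21 and 1.36 in all libraries.

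Across the 30 tested chains the fold change was nearly unrelated to the level with empty vector (Spearman's rho 0.04 across genes, which share libraries and are not replicates) and to coding length (rho 0.14). Over all 15078 tested genes rho with the empty vector level was -0.21. That level also enters the fold change, so the measures are not independent. Among the 21 chains that rose, C/EBPβ replicate 1 was above replicate 2 in 19 (90.5%), as in 82.3% of all 2129 genes that rose. The 3 chains that fell were lower in replicate 1 than in replicate 2. Most genes that fell did the same, as replicate 1 was above replicate 2 in only 14.8% of all 1630 of them. Cebpb stood at 483 and 473 CPM in these libraries, and Myog, a muscle differentiation factor, at 5.32 and 10.9 CPM, against 61.05 and 51.4 CPM with empty vector (log2 fold change -2.75, and -3.40 without C/EBPβ replicate 2). Whether this difference between the libraries bears on the collagen values was not tested. Without C/EBPβ replicate 1, 21 chains were higher and 2 lower, and without replicate 2, 22 and 3.

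Genes that act on collagen were read from 5 lists, whose counts stand beside 14.1% called higher and 10.8% called lower over all tested genes. Of 25 genes for hydroxylation, folding and export of procollagen 24 were tested, of which 20 rose and 0 fell, with a median log2 fold change of 0.55. Plod2, which hydroxylates the telopeptide lysines used for cross-links, had 224 and 189.6 CPM with C/EBPβ, against 104.6 and 101.5 CPM with empty vector (1.005, adjusted p = 0.000259). Creb3l1, an endoplasmic reticulum-bound activator of type I collagen transcription in bone, had 350.5 and 288.5 CPM with C/EBPβ, against 159.6 and 145 CPM with empty vector (1.07, adjusted p = 0.000340).

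Of 17 genes for procollagen trimming and cross-linking 13 were tested, of which 10 rose and 1 fell, with a median of 0.44. Lox, the lysyl oxidase that starts cross-linking, had 2997 and 2465 CPM with C/EBPβ, against 733.5 and 632.5 CPM with empty vector (log2 fold change 1.9995, adjusted p = 4.49e-05). Adamts2, which removes the amino propeptides of fibrillar procollagens, had 86.8 and 50.85 CPM with C/EBPβ, against 9.60 and 8.35 CPM with empty vector (2.93). Its relative Adamts14 fell, at 21.8 and 22.75 CPM with C/EBPβ, against 34.6 and 43.1 CPM with empty vector (-0.80, adjusted p = 0.00187). Without C/EBPβ replicate 1 the number that rose was 6.

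Among 14 regulators of fibril assembly 11 were tested, of which 8 were called higher and 0 lower, with a median of 1.62. Dpt among the 8 passed the filter through its C/EBPβ libraries only, and 7 rose among those with some library past it in each group. Tgfbi among these was under the cutoff of about 0.251 CPM in empty vector replicate 1, so that its test needed its C/EBPβ libraries. Tgfbi, a secreted collagen-binding protein, had 9.62 and 7.42 CPM with C/EBPβ, against 0.194 and 0.317 CPM with empty vector (log2 fold change 5.05), and Tnxb, a tenascin, had 3.91 and 3.19 CPM with C/EBPβ, against 0.583 and 0.608 CPM with empty vector (2.56). Of 14 collagen receptors 11 were tested, and 4 were called higher and 3 lower, with a median of 0.22. Itga1, the integrin chain that prefers type IV collagen, had 16.1 and 7.84 CPM with C/EBPβ, against 0.486 and 0.238 CPM with empty vector (5.00, with 4.41 without C/EBPβ replicate 1 and 5.62 without empty vector replicate 1). Being under the filter's cutoff in empty vector replicate 2, Itga1 too needed its C/EBPβ libraries to be tested. Mrc2, an endocytic receptor for collagen fragments, rose (0.79), and Itga10, a chondrocyte integrin chain, and Cd36, a scavenger receptor, were called lower (-1.70 and -2.34). Cd36 passed the filter through its empty vector libraries only, so that a fall was built in, and 2 receptors fell among the others.

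Of 16 genes for collagen breakdown 12 were tested, of which 5 were called higher and 1 lower, with a median of 0.37. Mmp8 and Mmp13 among the 5 passed the filter through their C/EBPβ libraries only, so that a rise was built in, and 3 rose among the others. Mmp2, a gelatinase that also cleaves type IV collagen, had 307 and 247 CPM with C/EBPβ, against 106.8 and 76.1 CPM with empty vector (log2 fold change 1.60, adjusted p = 0.000322). Mmp13, an interstitial collagenase with 3 counts in all in empty vector libraries, had 0.708 and 1.001 CPM with C/EBPβ, against 0.0729 and 0 CPM with empty vector. Pepd, a prolidase that splits proline dipeptides left by collagen breakdown, fell (-0.39, adjusted p = 0.0106), a call that was lost at nearly the same fold change when C/EBPβ replicate 1 was left out (-0.38, adjusted p = 0.0663). The number that rose was 3 with a filter of 5 CPM in 2 libraries.

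Markers of other mesenchymal cells were read beside these genes, again against 14.1% called higher and 10.8% called lower over all tested genes. Of 8 tendon and fibroblast markers 6 were tested, of which 4 rose and 1 fell, among them Pdgfra, a receptor chain for PDGF, at 69.9 and 48.3 CPM with C/EBPβ, against 10.45 and 9.44 CPM with empty vector (2.57). Dpt, dermatopontin, had 1.23 and 1.12 CPM with C/EBPβ, against 0.194 and 0.185 CPM with empty vector (2.61), having passed the filter through its C/EBPβ libraries only, and without it 3 of the markers rose. Cd34 fell (-0.70, adjusted p = 0.0751 without empty vector replicate 1). Summed over the 8 markers the level was 190 and 206 CPM with C/EBPβ, against 221 and 184 CPM with empty vector. Of 8 endothelial and mural markers 2 were tested, of which Kcnj8 was called higher, although it passed the filter through its C/EBPβ libraries only (3.002, with 4.19 without empty vector replicate 1 and 2.40 without empty vector replicate 2). Their sum was 1.34 and 1.24 CPM with C/EBPβ, against 0.587 and 0.399 CPM with empty vector, with Emcn at 0 counts. Of 10 leukocyte markers 2 were tested, of which Csf1r rose (1.33, with 1.9989 without empty vector replicate 1 and adjusted p = 0.0987 without empty vector replicate 2). The part of such cells in the collagen values was not tested.

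The authors' deposited table lists 39 of the 44 chains, 22 of them higher and 3 lower at an adjusted p of 0.05. The share called over all genes of that table is not given here, so these counts stand without a background. In the authors' deposited table Col25a1 was called higher (log2 fold change 2.02, adjusted p = 0.00785), while it had too few counts for a test here. Which libraries went into it is not stated.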

How the data were processed

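Messenger RNA of 4 libraries was counted per gene. HISAT2 2.0.4, GRCm38 and featureCounts 1.4.6 are named in the submitters' processing notes. The file headers give featureCounts 1.5.1, reverse-stranded and paired-end, on GENCODE M12. The authors deposited whole-number counts of fragments, without multi-mapping reads, which can lower values of near-identical genes. The authors' deposited comparison table, with column names of DESeq2, gives per gene the base mean (signal), log2 fold change and its error, test statistic (score), p-value and adjusted p-value, and served for description only.

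Symbols were paired with 49326 of 49585 identifiers. Genes passing filterByExpr (minimum count 10, minimum total 15, about 0.251 CPM in 2 libraries) were compared with edgeR 4.0.16 in R 4.3.3 (TMM, quasi-likelihood test, no covariate), which left 15078 genes. SE was derived from the fold change and the test statistic. FPKM used the deposited exon-union length. That length counts all annotated exons, so levels between genes were also computed per longest coding sequence of GENCODE M21. Intervals of counting error are not given per gene. With 1 count worth 0.0109 to 0.0266 CPM, chains under 1 CPM are the least precise. Library pairs of a group differed by more than counting noise (chi-square per degree of freedom 25.1 for C/EBPβ and 22.8 for empty vector), so none was counted as a library deposited in duplicate. This does not show that they are separate cultures.

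Members, classes and gene lists were chosen with earlier results of these data known. Each tested chain is given, with values per library for those called; from each list the 2 called genes of lowest adjusted p that rose, and the 2 that fell, are named, or the 2 most abundant where none is called (which did not occur in the pathway lists). All 6 myoblast markers, Cebpb and Myog are added as checks. Alternatives were 2 other scalings, DESeq2 1.42.0, limma-voom (limma 3.58.1), 2 other filters, a replicate block and leaving out each library.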

Additional observations from a re-analysis of the deposited data

Results flagged for a closer look

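Col13a1, a transmembrane collagen, had 0 counts in all 4 libraries, yet the authors' deposited table gives it a base mean of 8.60 with a log2 fold change of 0 and an adjusted p of 1. It was singled out because a signal stands in a table outside the main measurement where the counts used here show none. Which libraries and counts went into that table is not stated, and the cause was not tested.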

How the results depend on the processing

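The number of all genes called was 3759. It was 3756 with DESeq2-type size factors, 3777 with library totals only, 3550 in DESeq2, 3751 in limma-voom, 4506 with no low-count filter and 2724 with a filter of 5 CPM in 2 libraries. Leaving out a library gave 2493 to 3462, lowest without C/EBPβ replicate 1. Collagen chains called higher numbered 16 to 24 over all settings and 19 to 22 with a library left out, and chains called lower 2 or 3. The 24 called chains kept their sign wherever they were tested. DESeq2 lost Col23a1 and Col6a4, and no filter added Col25a1, Col28a1 and Col8a2. The log2 ratio of summed basement membrane chains, 0.20, ran between 0.07 and 0.33 with a library left out, and that of collagen VI was 2.28, and 2.47 per coding length.

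Signs turned only for values that had not passed. Col14a1 (log2 fold change 0.02) had -0.0242 in limma-voom, -0.22 without C/EBPβ replicate 1 and -0.10 without empty vector replicate 1. Col2a1 (0.29) had -0.79 to 1.24 with a library left out, lowest without C/EBPβ replicate 1, and -0.22 without empty vector replicate 2. Col8a2 (0.61) had -0.15 to 1.39 with a library left out, lowest without C/EBPβ replicate 1. The log2 change of the Col8a1/Col8a2 ratio (-0.24) ran from -0.905 (C/EBPβ replicate 2 left out) to 0.42 (C/EBPβ replicate 1 left out), with 0.37 when empty vector replicate 2 was left out. The causes were not tested.

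The groups share replicate numbers, but with 2 pairs the numbers cannot be shown to pair the libraries (correlation of same-numbered deviations 0.147). With the replicate number as a block 4536 genes, 22 higher chains and 3 lower chains were called, Col8a2 being the added chain (0.65, adjusted p = 0.00163). Chains below 1 CPM are limited by depth. Coding length, the chain ratios and every alternative for the ratios and the list counts were chosen after seeing the data. Genes for collagen breakdown called lower numbered 0 without C/EBPβ replicate 1 and 2 with no filter or without C/EBPβ replicate 2.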
